A study of Homo sapiens with 42 samples.

Results

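The VTRNA1 cluster holds the vault RNA genes VTRNA1-1, VTRNA1-2 and VTRNA1-3, and each was followed apart through 30 small RNA libraries of human cells. The members were taken by name: the 3 rows of the count table whose annotation carries one of these symbols, of 175946 rows in all and 85670 that were kept so as not to overlap. The table annotates 10 rows as vault RNA. The study removed POLR3G or POLR3GL, which are exchangeable subunits of the enzyme RNA polymerase III (Pol III), from THP-1 cells, a monocytic leukaemia line, and lowered POLR3G with an antisense oligonucleotide (ASO) in HEK293T cells, a line of embryonic kidney origin.

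Analysed here are 4 groups of THP-1 cells, A4, A7, E4 and G8, for which the labels do not say which subunit was targeted or whether a group is 1 clone, and a group labelled mock, given as HEK293T cells transfected with 200 nM of a control ASO. A further 12 samples (THP-1 labelled con, and HEK293T given the ASO against POLR3G) are not analysed here. Every group has 3 libraries per arm: an arm without end repair, and an arm treated with Antarctic phosphatase and polynucleotide kinase (PNK), which remakes RNA ends so that fragments with ends the adapters cannot join enter the library. Nothing in the labels says that the 3 libraries came from separate cultures, so p-values measure only the spread between libraries, which may be technical.

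Vault RNAs are short transcripts of Pol III, whose promoters include an A box and a B box inside the transcribed sequence. They are named for the vault, a large cytoplasmic particle with a shell of major vault protein, although much of the vault RNA of a cell lies outside it. VTRNA1-1 is known to bind the autophagy receptor SQSTM1, and vault RNAs can be cut into short fragments that enter small RNA libraries.

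The sequences are shown because they decide which reads can be told apart (GENCODE v29, GRCh38, plus strand). Capitals mark the runs of at least 12 bases that all 3 members hold.
VTRNA1-1: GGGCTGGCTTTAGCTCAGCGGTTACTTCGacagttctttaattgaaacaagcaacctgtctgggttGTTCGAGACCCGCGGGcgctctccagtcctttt
VTRNA1-2: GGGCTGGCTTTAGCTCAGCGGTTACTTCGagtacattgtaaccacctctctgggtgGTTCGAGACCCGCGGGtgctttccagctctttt
VTRNA1-3: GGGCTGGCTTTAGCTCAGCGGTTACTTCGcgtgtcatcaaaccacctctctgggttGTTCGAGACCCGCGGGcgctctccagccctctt

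The genes stand in a row on chromosome 5, and the table's rows lie at chr5:140711276-140711373 for VTRNA1-1, chr5:140718926-140719013 for VTRNA1-2 and chr5:140726159-140726246 for VTRNA1-3, on the plus strand of GRCh38. Each row covers a whole transcript but for its first base, with a gap of 7552 bases between the first pair and of 7145 bases between the second pair. All 3 members begin with the same 29 bases and share a further run of 16 bases, from position 67 in VTRNA1-1 and from position 57 in the other two. They differ in the stretch between these runs, which makes VTRNA1-1 the longest at 99 nt against 89 nt for each of the others, and in the last bases, where VTRNA1-1 and VTRNA1-2 end in a run of 4 T and VTRNA1-3 in a run of 2. Identity was 81.8% between VTRNA1-1 and VTRNA1-2, 82.8% between VTRNA1-1 and VTRNA1-3, and 87.8% between VTRNA1-2 and VTRNA1-3. A read that lies within the shared bases has the same letters in every member, and the sources used here do not state how the authors placed such reads. Every level below is uncertain to that extent.

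The letters TAGCTCA, of the kind that A boxes hold, start at position 11 in each member, and the letters GTTCGAG, of the kind that B boxes hold, start at position 67 in VTRNA1-1 and at position 57 in the other two. Of 1493 GENCODE transcripts of 89 to 102 nt, 0.670% held the first string, 0.670% the second and 0.268%, or 4 transcripts, held both, searched on the transcript's own strand. The members are among these transcripts and hold both strings, so these percentages are no independent background for them. VTRNA2-1, a relative described below, also holds both strings. Matches to either string are letters in a sequence and no measure of factor binding.

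Counts ignore strand, and 1 other row overlaps a member: lnc-HARS-1, a long non-coding RNA annotated on the minus strand at chr5:140708696-140711512, which contains VTRNA1-1. It had 85561 counts against 85486 for VTRNA1-1, an excess of 0 to 7 counts per library. Nearly all of its counts thus come from reads over the VTRNA1-1 row, and few from the rest of its length. The strand of the reads over VTRNA1-1 cannot be read from these counts. No other deposited row overlapped VTRNA1-2, with 2559 counts in all, or VTRNA1-3, with 1000.

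In units of 1000000 counts, the kept rows of a library without PNK summed to 9.66 to 13.3, and those of a library with PNK to 5.55 to 7.88. Libraries 1 and 2 of G8 stood apart without PNK, where miRNA rows held 1.99% and 2.04% of kept counts against 12.9% to 25.8% in the other 13 libraries. Test results that include libraries 1 and 2 of G8 are given with and without them where they differ. Without PNK, library 3 of every group was also farther from libraries 1 and 2 than these were from each other. The distance was chi-squared per feature, at 134 and 205 against 74.4 in A7, and 1320 and 1223 against 289 in G8. What sets library 3 apart was not tested. The libraries labelled mock went against their label: rows of 7 miRNA genes of haematopoietic cells summed to 5425 to 7651 CPM (counts scaled to a library of 1000000) in them without PNK, within the 1014 to 10014 of the THP-1 groups. The low end of that range is from G8, and the sums in A4, A7 and E4 began at 5667. Of those genes MIR142 and MIR223 had means of 2666 and 411 CPM in mock, and MIR150 had 0. Rows of 7 epithelial miRNA genes summed to 28.7 to 41.3 CPM there, within the 5.14 to 65.2 of the THP-1 groups, with MIR205 at 0. The 3 fibroblast miRNA genes of 5 with rows summed to 51.5 to 71.1 CPM, within the 4.30 to 82.9 of the THP-1 groups, with MIR214 at 0. With PNK the haematopoietic rows summed to 89.1 to 92.4 CPM in mock. This was within the 44.4 to 139 of G8 and below the 187 to 583 of A4, A7 and E4.

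VTRNA1-1 was the main member in every library. Without PNK it held 89.4% to 94.3% of the counts of the 3 members (median 92.9%, n = 15 libraries) and with PNK 94.1% to 97.9% (median 97.0%). VTRNA1-2 held 2.56% to 7.43% without PNK and 1.80% to 3.48% with it. VTRNA1-3 held 1.59% to 5.82% without PNK and 0.0199% to 3.03% with it. The 3 members together were 0.00853% to 0.0223% of kept counts without PNK and 0.0395% to 0.0951% with it. In bulk libraries such as these, fewer cells that make an RNA and less of it per cell cannot be told apart.

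On a scale of CPM per 100 bases, with edgeR's TMM scaling factors set within each arm, VTRNA1-1 had a median level of 130 without PNK, VTRNA1-2 of 5.68 and VTRNA1-3 of 4.47. With PNK the medians were 709, 21.9 and 2.66. The order of the minor members thus depended on the arm. VTRNA1-3 had more counts than VTRNA1-2 in 6 of 15 libraries without PNK, as many in 1 and fewer in 8, and with PNK it had more in 1 and fewer in 14.

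VTRNA1-1 without PNK had levels of 149, 161 and 128 CPM in the 3 libraries of A4, 160, 123 and 133 in A7, and 127, 121 and 127 in E4. It had 127, 152 and 87.5 CPM in G8 and 125, 105 and 115 in mock. On this TMM scale the groups overlapped, and the group means, from 115 ± 9.74 CPM in mock to 146 ± 16.7 in A4 (SD, n = 3), lay within the range of the G8 libraries. With library totals in place of TMM factors, the G8 libraries without PNK had 79.7, 77.3 and 89.9 CPM. Each was below every library of the other groups, the lowest of which was library 2 of mock at 113.5. The share of all features that separate so was not computed. With PNK its levels were 443, 456 and 694 CPM in A4, 881, 856 and 752 in A7, and 727, 638 and 811 in E4. They were 664, 1026 and 595 CPM in G8 and 849, 465 and 398 in mock. A7 lay above A4 in every library, while the other groups with PNK overlapped with at least one neighbour in the order of their means.

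VTRNA1-2 without PNK had 4.44, 4.38 and 5.34 CPM in A4, 6.05, 4.39 and 4.88 in A7, and 3.85, 5.15 and 4.21 in E4. It had 10.4, 11.8 and 4.71 CPM in G8 and 5.33, 4.999 and 5.02 in mock. On the TMM scale libraries 1 and 2 of G8 were thus above the other 13, and library 3 of G8 lay among them. By library totals, VTRNA1-2 had 6.51 and 6.001 CPM in libraries 1 and 2 of G8, below 7.92 in library 1 of A7. With PNK its levels were 12.1, 13.6 and 21.2 CPM in A4, 23.1, 21.0 and 17.7 in A7, and 19.2, 18.2 and 21.2 in E4. They were 20.4, 22.5 and 21.5 CPM in G8 and 15.6, 10.1 and 11.8 in mock. With TMM factors every library of mock was below every library of A7, E4 and G8. With library totals library 1 of mock had 17.1 CPM and library 1 of G8 16.2, so mock and G8 overlapped. How many of all features separate so was not computed.

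VTRNA1-3 without PNK had 5.66, 5.77 and 5.52 CPM in A4, 3.79, 3.48 and 3.70 in A7, and 3.85, 5.50 and 5.58 in E4. It had 2.22, 3.93 and 5.70 CPM in G8 and 2.57, 3.44 and 4.14 in mock. With PNK the spread was far wider, with 3.51, 14.7 and 3.99 CPM in A4, 3.33, 1.69 and 2.10 in A7, 3.10, 3.80 and 2.34 in E4, 0.425, 0.209 and 2.05 in G8, and 2.55, 1.39 and 1.38 in mock. Library 2 of A4 was the highest of the 15 with PNK and libraries 1 and 2 of G8 the lowest, and these G8 values rest on 2 and 1 counts.

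**Figure D1:**
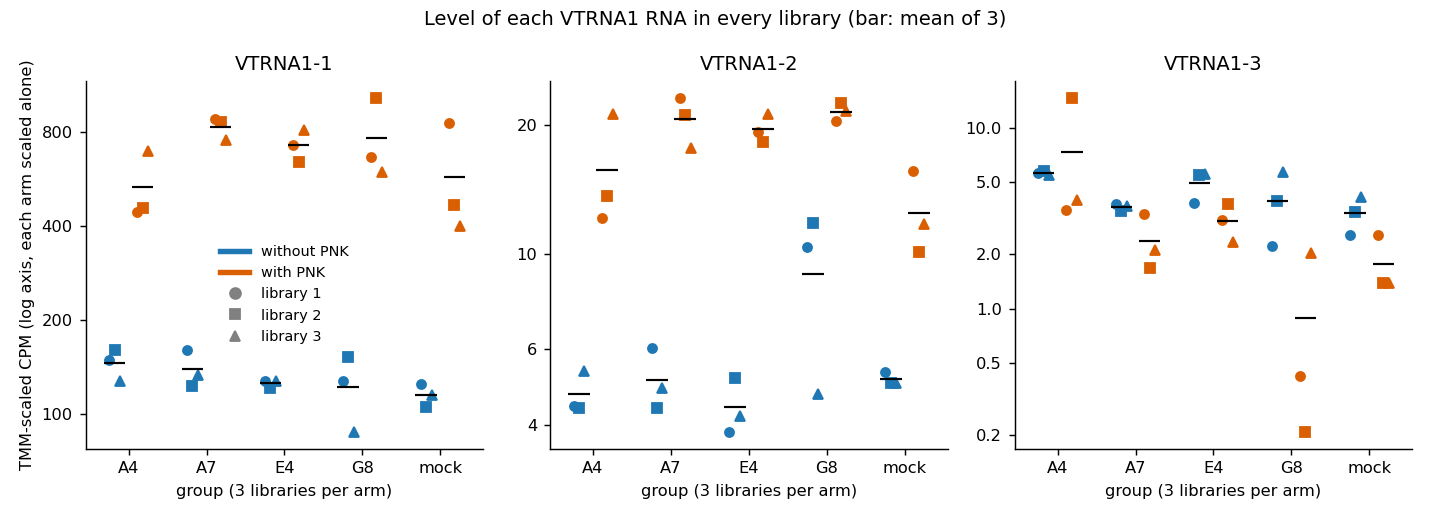
TMM-scaled CPM (log axis) of VTRNA1-1, VTRNA1-2 and VTRNA1-3 in the 30 libraries, by group on the horizontal axis, with colour for the arm, marker shape for the library number and a black bar for the mean of 3. Each arm was scaled alone, so heights of the 2 colours are not a test of PNK. On this TMM scale VTRNA1-2 is high in libraries 1 and 2 of G8 without PNK (10.4 and 11.8 CPM). VTRNA1-3 with PNK runs from 0.209 CPM in G8 to 14.7 in A4.

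The make-up of the cluster differed between the arms. Within a library, the ratio of 2 members does not depend on how libraries are scaled, and that of VTRNA1-3 to VTRNA1-1 was lower with PNK in every library of every group. Without PNK there were 15.4 to 57.4 counts of VTRNA1-1 for each of VTRNA1-3 (median 30.6), and with PNK 31.0 to 4922 (median 291). The log2 ratio of VTRNA1-3 to VTRNA1-1, with 0.5 added to each count, differed, with minus without PNK, by -1.76 ± 0.760 in A4, -3.23 ± 0.274 in A7, -3.20 ± 0.349 in E4, -5.05 ± 1.17 in G8 and -3.16 ± 0.258 in mock (difference of means ± SE, 3 libraries per arm). The arms did not overlap in any of the 5 groups, and an exact permutation test of 3 libraries against 3 cannot go below p = 0.10 (two-sided), so no p is given. The SE takes the arms as unpaired.

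For VTRNA1-3 to VTRNA1-1 the log2 ratios in A7 were -5.39, -5.13 and -5.16 without PNK and -8.02, -8.92 and -8.43 with it. In G8 they were -5.80, -5.24 and -3.93 without PNK and -10.29, -11.68 and -8.14 with it, the first 2 of which were the lowest of the 30 libraries. In A4 they were -4.71, -4.79 and -4.52 without PNK and -6.95, -4.95 and -7.41 with it. Library 2 of A4 with PNK therefore kept nearly the ratio seen without PNK, and its VTRNA1-3 share of 3.03% (exact 95% binomial interval 2.37% to 3.82%) overlapped the 3.38% (2.60% to 4.31%) of library 2 of A4 without PNK. The shares in G8 with PNK were 0.0620% (0.00751% to 0.224%), 0.0199% (0.000503% to 0.111%) and 0.331% (0.189% to 0.537%). These intervals cover counting error only.

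VTRNA1-2 was also lower against VTRNA1-1 with PNK in 4 of 5 groups without overlap, by less than VTRNA1-3. Its log2 ratio to VTRNA1-1 differed by -0.15 ± 0.194 in A4, where the arms overlapped, and by -0.57 ± 0.0512 in A7, -0.38 ± 0.149 in E4, -1.28 ± 0.283 in G8 and -0.98 ± 0.206 in mock, where they did not. Between the minor members, the log2 ratio of VTRNA1-3 to VTRNA1-2 differed by -1.61 ± 0.756 in A4, where the arms overlapped through library 2 with PNK, and by -2.66 ± 0.261 in A7, -2.83 ± 0.288 in E4, -3.77 ± 1.11 in G8 and -2.19 ± 0.258 in mock, without overlap. Dividing counts by length would add 0.16 to each ratio to VTRNA1-1 in both arms and so leaves these differences as they are.

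**Figure D2:**
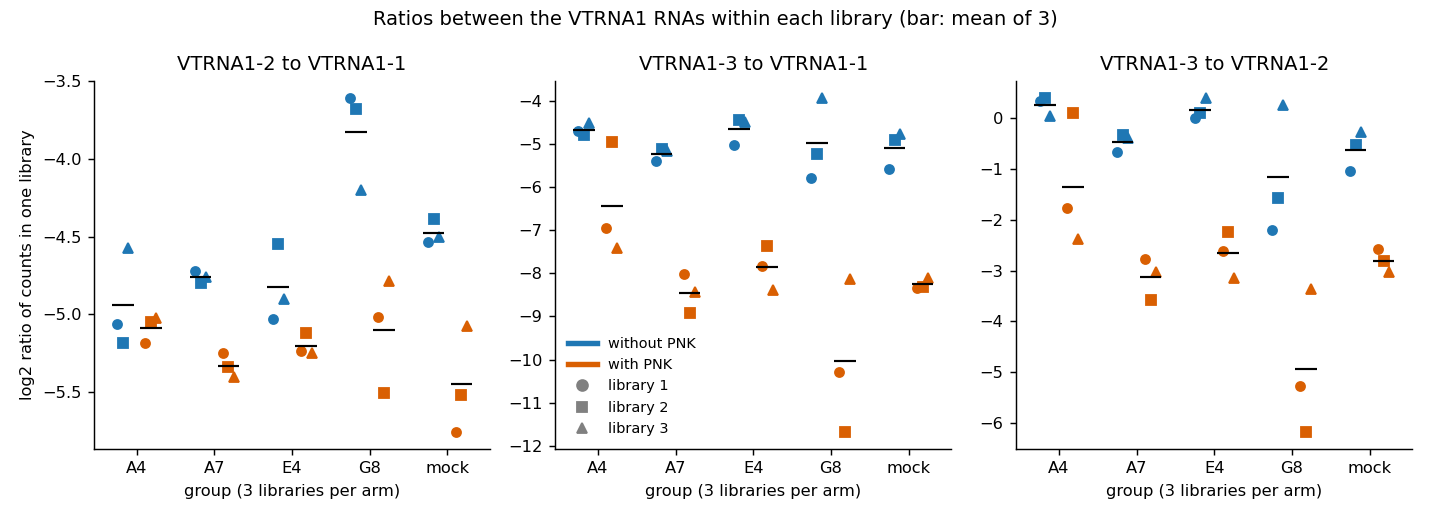
Log2 ratios between the counts of 2 members in the same library, by group, with colour for the arm, marker shape for the library number and a black bar for the mean of 3. For VTRNA1-3 to VTRNA1-1 (middle panel) the libraries with PNK lie below those without in all 5 groups, from a mean difference of -1.76 in A4 to -5.05 in G8.

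Against the rest of the library, the direction of the change with PNK depended on the scaling. Of all features tested with TMM factors, 16.9% were called lower in A4, 18.8% in A7, 17.9% in E4, 14.7% in G8 and 17.7% in mock, while the median feature was higher by 2.52 in mock to 3.24 in G8 on the log2 scale. The filter on low counts took both arms of a group together, so features abundant only with PNK count toward this median. Features tested numbered 6641 in G8 to 7864 in mock, against 1793 in the fit of the THP-1 groups without PNK. The 3 members were called lower in A4, A7, E4 and mock, and 2 of 3 in G8 (edgeR quasi-likelihood test with Benjamini-Hochberg adjustment over all features). VTRNA1-1 had log2 differences, with minus without PNK, of -1.77 in A4, -1.54 in mock, -0.95 in E4 and -0.91 in A7 (adjusted p at most 0.00276), and of -0.50 ± 0.536 in G8 (SE, adjusted p = 0.376). VTRNA1-2 was called in all 5 groups, at -1.91 in A4, -1.48 in A7, -1.33 in E4, -1.81 in G8 and -2.57 in mock (adjusted p at most 0.00405). VTRNA1-3 had the largest decrease of the 3 in each group, at -3.27 in A4, -4.10 in A7, -4.16 in E4, -5.22 in G8 and -4.79 in mock (adjusted p at most 1.29e-05).

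With library totals in place of TMM factors the median of all features moved up by 2.95 to 3.78, and VTRNA1-1 was higher with PNK, by 1.63 in A4, 2.29 in A7, 2.40 in E4, 3.08 in G8 and 2.49 in mock. VTRNA1-2 was then higher by 1.49 in A4, 1.72 in A7, 2.02 in E4, 1.80 in G8 and 1.48 in mock. VTRNA1-3 alone kept a negative sign in A7 (-0.92), E4 (-0.81), G8 (-1.57) and mock (-0.75, adjusted p = 0.0687), and stood at 0.11 ± 0.403 in A4. With factors from miRNA rows the median moved up by 7.25 to 8.76 and every member was higher in every group. Relative to the median feature the 3 members were lower under each of these scalings. That median includes features abundant only with PNK, so it is no neutral yardstick.

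Without a filter on low counts the TMM calls of VTRNA1-1 in A7, E4 and mock (log2 -0.05, 0.02 and -0.07) and of VTRNA1-2 in A7, E4 and G8 (-0.62, -0.36 and -0.79) were lost, and VTRNA1-3 was called in each group. DESeq2's size factors in edgeR ended the call of VTRNA1-2 in G8 (-0.82, adjusted p = 0.106) and of VTRNA1-1 in mock (-0.69, adjusted p = 0.0651). The value of VTRNA1-3 was -4.37 in A4 without library 2 with PNK, and in G8 it was -6.94 without library 3 with PNK and -4.52 without library 3 without PNK. VTRNA1-2 in A4 was -2.53 without library 3 with PNK.

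**Figure D3:**
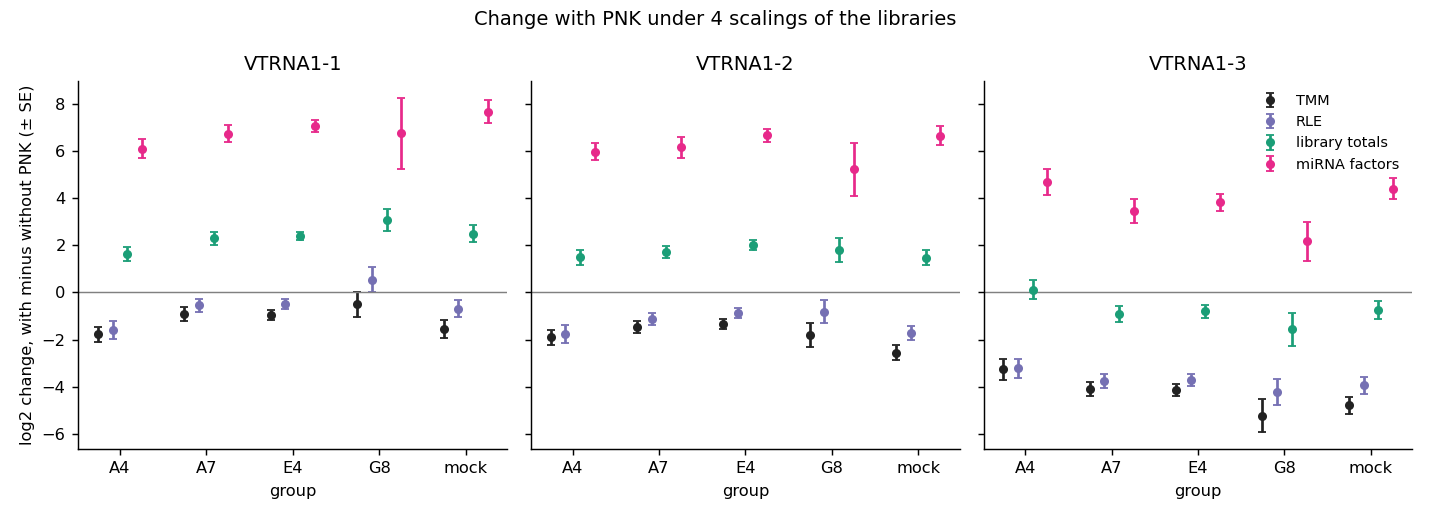
Log2 change of each member, with minus without PNK, in the 5 groups (points with SE bars, 3 libraries per arm), under TMM factors, DESeq2's median-ratio factors (RLE), library totals and factors from miRNA rows. VTRNA1-3 lies below VTRNA1-1 and VTRNA1-2 under each scaling, while the sign for VTRNA1-1 changes from -1.77 with TMM to 1.63 with library totals in A4.

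In the test across all 4 THP-1 groups without PNK, no member passed the test (edgeR quasi-likelihood F test over 12 libraries, adjusted p = 0.503 for VTRNA1-1, 0.102 for VTRNA1-2 and 0.299 for VTRNA1-3), while 32.6% of the 1793 features tested were called. At an unadjusted p under 0.05 there was 1 of 3, VTRNA1-2, which DESeq2 called (adjusted p = 0.0109). Without library 3 of G8, VTRNA1-2 and VTRNA1-3 were called (adjusted p = 0.00238 and 0.0169), and without libraries 1 and 2 of G8 VTRNA1-3 was (0.0478). With PNK 1 of 3 members was called, VTRNA1-3 (adjusted p = 0.0262), against 22.1% of 8614 features, and VTRNA1-1 and VTRNA1-2 had adjusted p of 0.231 and 0.296. That call was lost without library 2 of A4 (adjusted p = 0.104), library 1 of G8 (0.0598) or library 2 of G8 (0.0570), and without both of the latter (0.0835).

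In the 6 pairs of THP-1 groups without PNK edgeR called 0 of 3 members each time. The share of all features called was 11.7% for A4 minus A7, 0.948% for A4 minus E4, 23.6% for A4 minus G8, 0.112% for A7 minus E4, 26.6% for A7 minus G8 and 22.1% for E4 minus G8. VTRNA1-2 passed an unadjusted p of 0.05 in A4 minus G8 (log2 -0.76 ± 0.306, adjusted p = 0.0937) and E4 minus G8 (-0.89 ± 0.307, adjusted p = 0.0572), and no other member did in any of the 6. DESeq2 called VTRNA1-2 higher in G8 than in each other THP-1 group, with log2 differences of -0.97 for A4 minus G8, -0.88 for A7 minus G8 and -1.08 for E4 minus G8 (adjusted p = 0.0172, 0.0290 and 0.00894). These differences followed libraries 1 and 2 of G8: without them the edgeR values were -0.12, -0.06 and -0.18, and without library 3 of G8 they were -1.09, -0.94 and -1.18 and called. With library totals A7 minus G8 changed sign, to 0.18 ± 0.245, where the median of all features moved by 0.70. What sets these libraries apart was not tested.

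For VTRNA1-1 the largest of the 6 differences without PNK was 0.40 ± 0.254 (A4 minus G8, adjusted p = 0.287). Library totals moved it to 0.82 (adjusted p = 0.0288) and A7 minus G8 from 0.33 ± 0.254 to 1.11 (adjusted p = 0.0059), where the median of all features moved by 0.31 and 0.70. VTRNA1-3 without PNK differed by 0.63 ± 0.329 between A4 and A7 (adjusted p = 0.213), whose libraries did not overlap. Without libraries 1 and 2 of G8 in the fit that value was 0.68 ± 0.185 and called (adjusted p = 0.0205). Without library 3 of G8, VTRNA1-3 was called in A4 minus G8 (1.04, adjusted p = 0.00725) and in E4 minus G8 (0.87, adjusted p = 0.0184). With factors from miRNA rows, which libraries 1 and 2 of G8 hold at a low share, VTRNA1-3 in A4 minus G8 was -0.55 and the median of all features moved by -1.40.

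With PNK 1 of the 6 pairs had a member called: VTRNA1-3 was higher in A4 than in G8 by 2.76 ± 0.649 on the log2 scale (adjusted p = 0.0106), with all 3 libraries of A4 above all 3 of G8. It was 4.44 without library 3 of G8, and was no longer called without library 2 of A4 (1.81, adjusted p = 0.0539) or without libraries 1 and 2 of G8 (1.80, adjusted p = 0.1801). The values of VTRNA1-3 in A4 minus A7, 1.59 ± 0.560 (adjusted p = 0.0728), and in A4 minus E4, 1.22 ± 0.543 (adjusted p = 0.179), did not pass. Without library 1 of A4, library 3 of A4 or library 3 of G8 the first of these was called (1.97, 1.88 and 1.59, adjusted p = 0.0397, 0.0442 and 0.0357), as it was without libraries 1 and 2 of G8 (1.57, adjusted p = 0.0464). The share of all features called was 13.7% for A4 minus A7, 9.59% for A4 minus E4, 15% for A4 minus G8, 0.0929% for A7 minus E4, 8.17% for A7 minus G8 and 11.1% for E4 minus G8.

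For VTRNA1-1 with PNK the values of A4 against the other THP-1 groups were negative. Its log2 differences were -0.65 ± 0.253 for A4 minus A7, -0.45 ± 0.252 for A4 minus E4 and -0.52 ± 0.252 for A4 minus G8, none of which passed (adjusted p = 0.102, 0.294 and 0.199). VTRNA1-2 had differences of -0.41 ± 0.203, -0.33 ± 0.204 and -0.46 ± 0.204 in the same pairs (adjusted p = 0.204, 0.349 and 0.156). Without library 3 of A4, both were called in A4 minus A7 (-0.88 and -0.67, adjusted p = 0.0469 and 0.0348) and VTRNA1-2 in A4 minus G8 (-0.73, adjusted p = 0.0242). With library totals VTRNA1-1 was called in A4 minus A7 (-0.95, adjusted p = 0.0205), where the median of all features moved by -0.29. In the 5 pairs with a count of 0 called, the members at an unadjusted p under 0.05 numbered 2 in A4 minus A7, 1 in A4 minus E4, 0 in A7 minus E4, 0 in A7 minus G8 and 1 in E4 minus G8, and DESeq2 called 0 in each. E4 minus G8 gave a call of VTRNA1-3 without library 3 of G8 (3.21, adjusted p = 0.0379).

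Comparisons with the libraries labelled mock share those 3 libraries in each arm. Without PNK edgeR called 0 of 3 members in each, where the share of all features called was 1.3% for A4, 0.38% for A7, 3.96% for E4 and 26.4% for G8. VTRNA1-3 in A4 (0.74 ± 0.301, adjusted p = 0.260) and VTRNA1-2 in G8 (0.80 ± 0.302, adjusted p = 0.0643) passed an unadjusted p of 0.05, and DESeq2 called the latter (0.87, adjusted p = 0.0220). Without libraries 1 and 2 of G8 the latter was 0.06, and VTRNA1-3 in A4 was 0.80 and called (adjusted p = 0.0353). Without library 3 of G8, VTRNA1-2 in G8 was 0.99 (adjusted p = 0.00140).

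With PNK, VTRNA1-3 was higher in A4 than in mock by 2.04 ± 0.551 (adjusted p = 0.0229), with no overlap between the groups and 11.2% of all features called. It was 1.09 without library 2 of A4 (adjusted p = 0.240), 1.88 and 1.89 without library 2 or 3 of mock (0.0975 and 0.0893), and 1.51 with library totals (0.0533), where the median of all features moved by -0.52. VTRNA1-2 was higher in G8 than in mock by 0.79 ± 0.213 (adjusted p = 0.0388), with 5.45% of all features called. Its levels in G8 and mock did not overlap on the TMM scale but did with library totals. VTRNA1-2 was 0.73 ± 0.212 higher in A7 (adjusted p = 0.0596, 4.98% of features called) and 0.65 ± 0.213 higher in E4 (adjusted p = 0.0680, 7.95%), where 0 of 3 members were called, 1 passed an unadjusted p of 0.05 and DESeq2 called 0. Both of these were called without library 3 of A4 (0.73 and 0.66, adjusted p = 0.0323 and 0.0390) or library 1 of mock (0.92 and 0.85, adjusted p = 0.0302 and 0.0346). The size of the G8 difference stayed between 0.65 and 0.98 when any 1 library was left out, but its call was lost in 9 of the 15 (libraries 2 and 3 of A7, 1 to 3 of E4, 1 and 2 of G8, 2 and 3 of mock), with adjusted p of 0.0513 to 0.177. The call was also lost with library totals, where the difference was 0.42 (adjusted p = 0.282), with miRNA factors (1.07, 0.0807), with no filter on low counts (0.77, 0.119), with the replicate number as a block (0.79, 0.0534) and without both libraries 1 and 2 of G8 (0.79, 0.235). It was kept with RLE factors (adjusted p = 0.0450), every deposited row (0.0302) and DESeq2 (0.0348). VTRNA1-1 did not pass against mock in either arm, with log2 differences from -0.10 ± 0.296 in A4 to 0.54 ± 0.297 in A7 with PNK.

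**Figure D4:**
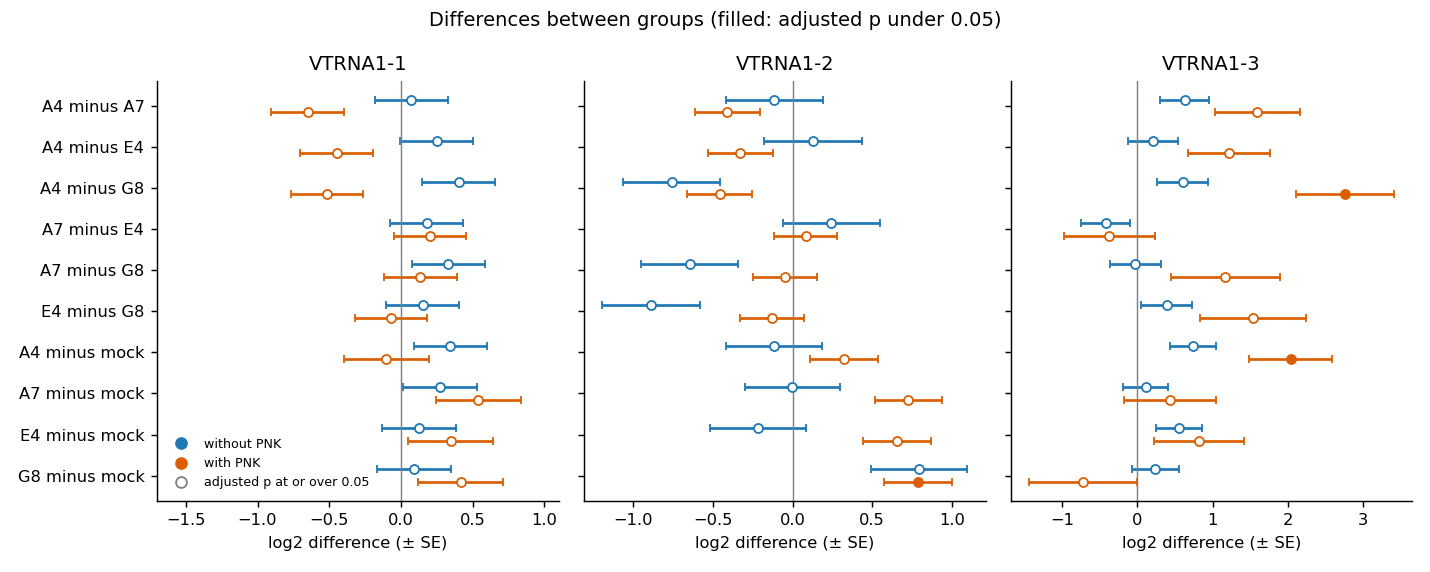
Log2 differences between groups for each member (points with SE bars), without and with PNK, for the 6 pairs of THP-1 groups and the 4 comparisons with the libraries labelled mock. Filled points passed an adjusted p of 0.05: VTRNA1-3 in A4 minus G8 (2.76) and A4 minus mock (2.04), and VTRNA1-2 in G8 minus mock (0.79), all with PNK.

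Whether the differences between THP-1 groups depended on the arm was tested with an interaction of group and arm. This fit took the arms as independent, although same-numbered libraries deviated together between the arms of A4, E4 and G8. edgeR called 0 of 3 members (adjusted p = 0.313 for VTRNA1-1, 0.773 for VTRNA1-2 and 0.538 for VTRNA1-3), against 0.727% of 10727 features. VTRNA1-1 passed an unadjusted p of 0.05, and DESeq2 called it (adjusted p = 0.00649), 1 of 3. VTRNA1-3, called across groups with PNK and not without, was thus not shown to differ in this between the arms.

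Within libraries, 3 of 6 ratio tests across the THP-1 groups passed (exact permutation test of an F statistic over 369600 arrangements of 12 libraries, Benjamini-Hochberg over 3 ratios and 2 arms). Ratios of other pairs of features were not tested, so no share over all features stands beside this count. Within an arm each log2 ratio follows from the other 2, so the tests are not independent. Both passes with PNK involve VTRNA1-3, which had 2 and 1 counts in libraries 1 and 2 of G8. Without PNK the log2 ratio of VTRNA1-2 to VTRNA1-1 was -3.83 ± 0.325 in G8, -4.76 ± 0.0383 in A7, -4.83 ± 0.249 in E4 and -4.94 ± 0.325 in A4 (SD, n = 3, exact permutation p = 0.0116, adjusted 0.0235). All 3 libraries of G8 lay above the other 9, at -3.60, -3.68 and -4.20, while the mock libraries lay at -4.54 to -4.38. The call was lost without libraries 1 and 2 of G8 (adjusted p = 0.166), and also when any of libraries 1 or 2 of A4, 1 to 3 of A7 or 1 or 3 of E4 was left out (0.0512 to 0.0966). It was also lost with the replicate number as a block (exact permutation p = 0.0434 over 13824 arrangements, adjusted 0.0868). In this arm the numbers paired the libraries of A4 with those of E4 and of G8, but not those of A7 with any other THP-1 group nor those of E4 with G8. E4 with G8 missed the cutoff of 0.1 narrowly, with correlations of 0.186, 0.0966 and 0.294.

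With PNK the log2 ratio of VTRNA1-3 to VTRNA1-1 was -6.44 ± 1.31 in A4, -7.86 ± 0.513 in E4, -8.46 ± 0.453 in A7 and -10.04 ± 1.78 in G8 (SD, n = 3, exact permutation p = 0.0118, adjusted 0.0235). That of VTRNA1-3 to VTRNA1-2 was -1.35 ± 1.30 in A4, -2.66 ± 0.452 in E4, -3.13 ± 0.414 in A7 and -4.93 ± 1.44 in G8 (exact permutation p = 0.00286, adjusted 0.0171). A4 was the highest and G8 the lowest group in both, and the mock means of -8.25 and -2.80 lay among the others. The first call was lost without libraries 1 and 2 of G8 (adjusted p = 0.160) and when library 1 or 2 of A4 or any library of A7 or E4 was left out (0.0523 to 0.111). The second was lost without libraries 1 and 2 of G8 (0.160) and when library 1 or 2 of A4, any of A7, or 1 or 3 of E4 was left out (0.0512 to 0.0966). The other 3 tests had exact permutation p of 0.507 (VTRNA1-3 to VTRNA1-1) and 0.0764 (VTRNA1-3 to VTRNA1-2) without PNK, and 0.443 (VTRNA1-2 to VTRNA1-1) with PNK, adjusted to 0.507, 0.115 and 0.507. Each of these passed without 1 library: the first 2 without library 3 of G8 (adjusted p = 0.0164 and 0.00156) and the last without library 2 of G8 (0.0117).

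Over the 15 libraries of an arm the correlations between members ranged from -0.47 to 0.82. With PNK VTRNA1-1 and VTRNA1-2 had a Pearson correlation of log2 CPM of 0.82, while VTRNA1-3 had -0.34 with VTRNA1-1 and -0.21 with VTRNA1-2. Without PNK the correlations were 0.23 between VTRNA1-1 and VTRNA1-2, 0.01 between VTRNA1-1 and VTRNA1-3, and -0.47 between VTRNA1-2 and VTRNA1-3. These are descriptions over libraries that share scaling factors and, by group, their cells. They include libraries 1 and 2 of G8 and were not computed without them. Without PNK they rest on 46 to 83 counts of VTRNA1-2 and 16 to 74 of VTRNA1-3 per library, and with PNK on 65 to 168 and 1 to 70.

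The features most like VTRNA1-3 with PNK were nuclear tRNA genes: tRNA-Gly-GCC-1-3 (r = 0.96 over 15 libraries), tRNA-Lys-CTT-4-1 (0.95) and tRNA-Lys-TTT-1-2 (0.95), each of which shares reads with near-identical copies. tRNA-Gly-GCC-1-3 had 293 CPM in library 2 of A4 against 104 and 129 in libraries 1 and 3, and 31.6, 21.5 and 54.0 CPM in G8. tRNA-Lys-CTT-4-1 had 143 CPM in library 2 of A4 against 30.9 and 35.7 in the others of A4, and 3.82, 1.67 and 10.7 CPM in G8. The library where VTRNA1-3 was highest and the pair where it was lowest were also those of tRNA-Gly-GCC-1-3 and tRNA-Lys-CTT-4-1. All nuclear tRNA rows together held 8.60% of kept counts in library 2 of A4 with PNK, against 9.45% and 9.35% in libraries 1 and 3.

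Without PNK, VTRNA1-3 was most like the miRNA rows MIR92A1 (r = 0.68), MIR92A2 (0.67) and MIR125A (0.66). Each of these rows was lowest in libraries 1 and 2 of G8, where miRNA rows held a low share. MIR92A1 had 3721 and 4917 CPM there and MIR125A 116 and 158. MIR92A2 followed MIR92A1 closely, at 3402 and 4424 CPM, so these rows may not be separate likenesses. VTRNA1-2 without PNK was most like RNU2-1, the U2 spliceosomal RNA (0.93), and the C/D snoRNAs SNORD102 (0.92) and SNORD6 (0.92). SNORD6 had 13744 and 25281 CPM in libraries 1 and 2 of G8, where VTRNA1-2 was highest on the TMM scale, against 1928 to 3055 in the other libraries. For VTRNA1-1 without PNK the most alike were a large-subunit rRNA row (0.84), a mitochondrial non-coding row (0.77) and tRNA-Lys-TTT-7-1 (0.75). With PNK they were 3 long non-coding rows for VTRNA1-1 (0.85 to 0.89) and 3 for VTRNA1-2 (0.81 to 0.84), at mean levels of 4.78 to 19.7 CPM.

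**Figure D5:**
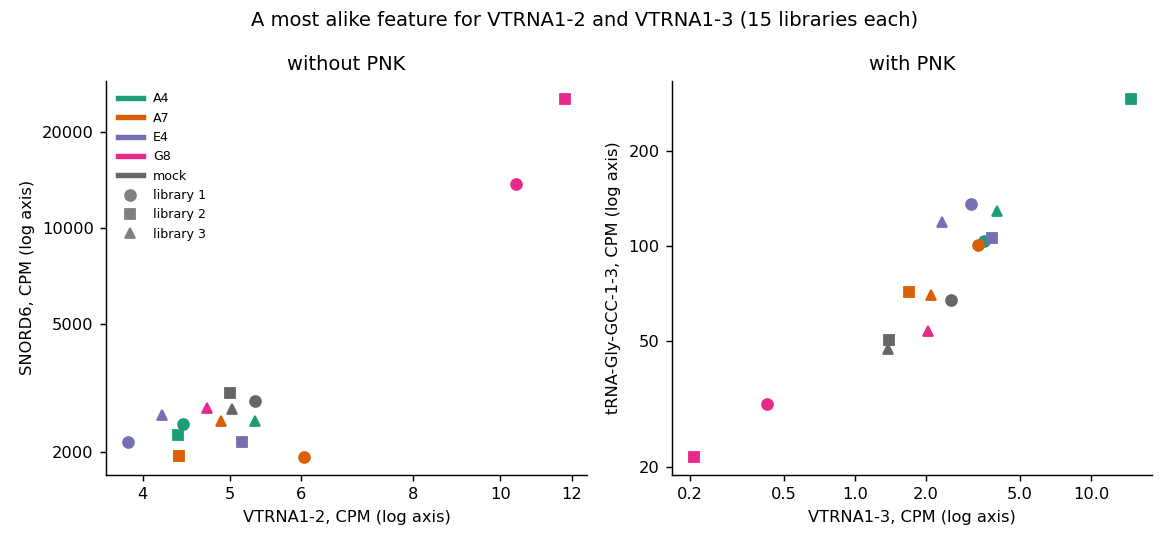
Left, SNORD6 against VTRNA1-2 without PNK; right, tRNA-Gly-GCC-1-3 against VTRNA1-3 with PNK (CPM, log axes), 1 point per library, coloured by group with marker shape for the library number. In the left panel (r = 0.92) libraries 1 and 2 of G8, at 13744 and 25281 CPM of SNORD6, lie far from the other 13; in the right panel (r = 0.96) the ends are library 2 of A4 and libraries 1 and 2 of G8.

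Beside the cluster stand its nearest relatives. VTRNA3-1P, a pseudogene of the family on the X chromosome, begins with the same 29 bases as the members but holds GTTTGAG at position 70 and no GTTCGAG. Its counts were near those of VTRNA1-3, with 987 over all libraries against 1000. VTRNA2-1, also called nc886, holds GTTCGAG at position 69 and TAGCTCA at position 11, is 52.9% to 57.7% identical to the other 4, and is known to bind the kinase PKR. It had 668566 counts, and its median per 100 bases was 307 without PNK and 5940 with it.

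VTRNA3-1P without PNK had 7.42, 9.40 and 9.36 CPM in A4, 3.28, 3.40 and 2.72 in A7, 2.76, 4.10 and 3.11 in E4, 0.833, 2.43 and 1.38 in G8, and 6.56, 6.47 and 4.83 in mock. It was called across the THP-1 groups without PNK (adjusted p = 0.00297), with A4 above G8 by 2.65 ± 0.344 (adjusted p = 0.000692) and no overlap. With PNK it was not called across groups (adjusted p = 0.549). The members and VTRNA3-1P were not compared by a test, and it may share reads with them in the shared bases. With PNK and TMM factors it was called lower in each group, at -4.86 in A4, -4.004 in A7, -3.99 in E4, -2.68 in G8 and -5.99 in mock, and its log2 ratio to VTRNA1-3 overlapped between the arms in A4, A7 and E4 but not in G8 (2.42 ± 0.837) or mock (-1.19 ± 0.327). With library totals VTRNA3-1P was -1.45 in A4, -0.83 in A7, -0.66 in E4 (adjusted p = 0.0589) and -1.96 in mock, and had the other sign in G8 (0.92, adjusted p = 0.159).

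VTRNA2-1 without PNK had 156, 164 and 205 CPM in A4, 1296, 752 and 612 in A7, 150, 143 and 173 in E4, 330, 310 and 152 in G8, and 925, 516 and 422 in mock. It was called across the THP-1 groups (adjusted p = 0.00258), with A4 minus A7 at -2.35 ± 0.372 (adjusted p = 0.0107), where VTRNA1-1 differed by 0.07 ± 0.254. A7 and mock did not overlap with A4, E4 or G8. It was the 1 transcript of the Pol III list below with a called interaction of group and arm (adjusted p = 0.0181). With PNK it was called higher in A4 by 1.13 ± 0.315 and in E4 by 1.96 ± 0.200 with TMM factors, where the 3 members were called lower. The median feature rose by more there, by 2.66 in A4 and 3.02 in E4, but this median includes features abundant only with PNK. With library totals VTRNA2-1 was higher in all 5 groups, by 2.93 in A7 to 5.31 in E4, where the median feature rose by 6.03 and 6.10.

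Of 14 other Pol III transcripts listed (VTRNA2-1, VTRNA3-1P, the Y RNAs RNY1, RNY3, RNY4 and RNY5, the signal recognition particle RNAs RN7SL1, RN7SL2 and RN7SL3, the transcription regulator RN7SK, the RNase RNAs RMRP and RPPH1, the minor spliceosomal RNU6ATAC, and BCYRN1), 12 were tested across THP-1 groups without PNK and 7 were called. With PNK 8 of 13 were called. RNY5 (adjusted p = 0.00689), RNY1 (0.00695) and RNY3 (0.0221) were among those called without PNK, and RMRP (0.00418), RNY3 (0.00808), RNY5 (0.0189) and RNY4 (0.0256) among those with PNK. The shares of all features called, 32.6% and 22.1%, stand beside these counts, and rows of this family share reads with their pseudogenes.

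With PNK and TMM factors, some of the listed transcripts were called higher and more were called lower, and this tally turned with the scaling. Of 13 tested in A4, 4 were called higher and 6 lower, and of 13 in mock 1 and 9. Of 12 tested in each other group, 1 was called higher and 6 lower in A7, 2 and 7 in E4, and 1 and 8 in G8. Of all features tested, 4925 were called higher and 1205 lower of 7146 in A4, and 4855 and 1393 of 7864 in mock. These counts were 5338 and 1375 of 7315 in A7, 5280 and 1305 of 7306 in E4, and 4897 and 976 of 6641 in G8. The median log2 difference of the list was -0.09 in A4, -0.64 in A7, -1.07 in E4, -1.95 in G8 and -1.39 in mock, beside -1.91, -1.48, -1.33, -1.81 and -2.57 for the 3 members. With library totals most were called higher: 10 and 1 lower in A4, 9 and 2 in A7, 10 and 0 in E4, 10 and 0 in G8, and 9 and 2 in mock, with list medians from 1.64 in G8 to 3.31 in A4. Most of all features were then called higher too, from 5855 of 6641 in G8 to 6880 of 7864 in mock. With factors from miRNA rows every transcript tested was called higher in each group, as were most of all features (6843 of 7146 in A4 and 6234 of 6641 in G8). With RLE factors the tally stayed nearer to that of TMM, at 5 higher and 6 lower in A4, 3 and 5 in A7, 2 and 6 in E4, 3 and 6 in G8, and 1 and 6 in mock. RN7SK was called higher in each group, by 1.95 in A4, 2.06 in A7, 1.88 in E4, 1.64 in G8 and 0.86 in mock, and was higher with library totals too, by 4.91 in mock to 5.36 in A4. The median feature rose by more than RN7SK with library totals, by 5.85 in A4 to 6.56 in G8. With TMM factors it also rose by more, by 2.66 in A4, 3.08 in A7, 3.02 in E4, 3.24 in G8 and 2.52 in mock. Features abundant only with PNK are part of this median. RNY4 was called lower in each, at -2.68, -1.95, -2.31, -2.19 and -2.97 in that order, and turned to 0.73 to 1.39 with library totals. RMRP was called lower at -2.64, -4.24, -3.43, -4.54 and -5.24, and with library totals stood at 0.76 in A4 and between -0.07 and -1.19 in the other groups. With factors from miRNA rows RNY4, RMRP and VTRNA3-1P were all higher in each group, by 2.86 to 6.28. The values of VTRNA1-3, from -3.27 to -5.22, lay among those of RMRP, and those of VTRNA1-1, from -0.50 to -1.77, lay nearer to 0 than those of RNY4 in each group.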

How the data were processed

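The authors deposited 1 table of raw counts, whole reads per annotated row, for 30 libraries. Per the submitters' processing notes, the tools were Trim Galore, FastQC, Bowtie2 2.3.5.1, SAMtools 1.9, deepTools 3.2.1 and bedtools 2.28.0, with the build GRCh38. Their settings are not given in the sources used here. A read appears in each row it overlaps, on either strand. Of rows that overlap, 1 was kept (short structured RNAs of at most 400 bases first, by counts, then longer rows by length), which left 85670 of 175946. VTRNA3-1P was matched to its row by RefSeq coordinates.

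Counts were tested in R 4.3.3 with edgeR 4.0.16 (filterByExpr, TMM factors, quasi-likelihood F tests, with limma 3.58.1 loaded), in 1 fit per arm for the THP-1 groups, 1 per arm that adds mock, 1 per group for PNK and 1 for the interaction. Every adjusted p is a Benjamini-Hochberg value over all features tested, called at 0.05, unless it is said to come from an exact permutation test. DESeq2 1.42.0 was an alternative. The fits and the permutation test were also run on a few simulated data sets without outlying libraries. Those runs do not show how the tests behave with libraries such as 1 and 2 of G8. Log2 CPM used a prior count of 2 and ratios a count of 0.5 added to each member. Shares have exact (Clopper-Pearson) 95% intervals. Python packages were numpy 2.4.6, pandas 2.3.3, scipy 1.17.1, matplotlib 3.10.9 and Biopython 1.88. Sequences came from GENCODE v29.

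The members and lists were chosen with earlier results of these data known. Named besides the members are the listed Pol III transcripts and, for each member and arm, the 3 features of at least median abundance with the highest Pearson correlation of log2 CPM over 15 libraries. Of 42 labelled samples 12 have no column here, so the planned comparison with con was not made. Same-numbered libraries deviated together (each of 3 correlations over 0.1) for A4 with E4, A4 with G8 and A7 with mock without PNK, and between the arms of A4, E4 and G8, and not for the other pairs. Alternatives were DESeq2 (RLE) size factors, library totals, factors from miRNA rows, no filter, every deposited row, DESeq2, a replicate block, 1 library left out at a time, and no G8 libraries 1 and 2.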

Additional observations from a re-analysis of the deposited data

How the results depend on the processing

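Of the adjusted p and numbers of members called recomputed for the comparisons, 681 stayed on their side of the threshold or within 1.5 times of a count, 67 counts moved by more, 17 adjusted p newly passed and 30 no longer passed. A number called takes no account of direction. Of the log2 differences of single members recomputed for the PNK comparisons and for the called pairs, 30 reversed in sign, 28 kept their sign and no longer passed, 1 newly passed and 202 kept sign and side. The cause of these changes was not tested. The precision of VTRNA1-2 and VTRNA1-3 is limited by depth, at 46 to 168 and 1 to 74 counts per library, and that of every comparison by 3 libraries per group. A group left with 1 library is assumed to vary like the others.

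Across the THP-1 groups without PNK, the adjusted p of VTRNA1-1 was 0.0252 with library totals and 0.0442 with miRNA factors. That of VTRNA1-2 was 0.0457 with RLE factors, 0.00803 with miRNA factors and 0.0109 with DESeq2, and that of VTRNA1-3 was 0.0320 with miRNA factors and 0.0478 without G8 libraries 1 and 2. With PNK it was 0.00101 for VTRNA1-1 and 0.000379 for VTRNA1-2 with miRNA factors, and 0.0835 for VTRNA1-3 without G8 libraries 1 and 2. In the interaction DESeq2 gave VTRNA1-1 0.00649. With 1 library left out, the adjusted p ranged from 0.00238 to 0.359 for VTRNA1-2 and from 0.0169 to 0.445 for VTRNA1-3 without PNK, and from 0.00633 to 0.104 for VTRNA1-3 with PNK.

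The number of members called without PNK, 0 in each pair, was 1 in A4 minus A7 and in A4 minus mock without G8 libraries 1 and 2. It was 1 in A4 minus G8 with RLE factors, library totals, miRNA factors or DESeq2. It was 1 in A7 minus G8 with library totals or DESeq2 and 3 with miRNA factors. It was 1 in E4 minus G8 and in G8 minus mock with RLE factors, every deposited row or DESeq2, and 3 in both with miRNA factors. With 1 library left out it ranged from 0 to 2 in A4 minus G8 and in E4 minus G8, and from 0 to 1 in A7 minus G8 and in G8 minus mock.

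With PNK the number was 1 in place of 0 in A4 minus A7 with library totals, miRNA factors, no filter, every deposited row or no G8 libraries 1 and 2, in A4 minus E4 with miRNA factors or no filter, in E4 minus G8 with no filter, and in A7 minus mock and E4 minus mock with every deposited row. It was 2 in A7 minus G8 and in E4 minus G8 with miRNA factors. In A4 minus G8 it was 3 in place of 1 with miRNA factors and 0 without G8 libraries 1 and 2. In A4 minus mock it was 0 in place of 1 with library totals. In G8 minus mock it was 0 in place of 1 with library totals, miRNA factors, no filter, the replicate block or no G8 libraries 1 and 2. With 1 library left out it ranged from 0 to 3 in A4 minus A7, 0 to 2 in A4 minus G8, and 0 to 1 in E4 minus G8 and in each comparison with mock.

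For PNK, library totals turned VTRNA1-1 to 1.63 in A4, 2.29 in A7, 2.40 in E4, 3.08 in G8 and 2.49 in mock, VTRNA1-2 to 1.49, 1.72, 2.02, 1.80 and 1.48 in that order, and VTRNA1-3 to 0.11 in A4. The miRNA factors, in the same order, turned VTRNA1-1 to 6.11, 6.74, 7.06, 6.75 and 7.66, VTRNA1-2 to 5.97, 6.15, 6.67, 5.22 and 6.66, and VTRNA1-3 to 4.69, 3.46, 3.82, 2.17 and 4.41. In G8 VTRNA1-1 was 0.53 with RLE factors or DESeq2 and 0.54 with no filter, which turned it to 0.019 in E4. With no filter 1 of 3 members was called lower in A7, E4 and G8, and with RLE factors 1 in G8.

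With the replicate block the adjusted p of the ratio of VTRNA1-2 to VTRNA1-1 without PNK was 0.0868, and the adjusted p of VTRNA1-2 in G8 minus mock with PNK was 0.0534. The block changed no other call, and the numbers pair neither G8 with mock nor all THP-1 groups. Without G8 libraries 1 and 2 the adjusted p of the ratios to VTRNA1-1 without PNK was 0.166 for VTRNA1-2 and 0.0161 for VTRNA1-3, and with PNK 0.0161 and 0.160, and that of VTRNA1-3 to VTRNA1-2 with PNK was 0.160. With 1 library left out, the ratio of VTRNA1-2 to VTRNA1-1 ranged from 0.0150 to 0.0966 without PNK and 0.0117 to 0.683 with it, that of VTRNA1-3 to VTRNA1-1 from 0.0164 to 0.715 and 0.00156 to 0.111, and that of VTRNA1-3 to VTRNA1-2 from 0.00156 to 0.256 and 0.00169 to 0.0966. The PNK comparison in G8 could not be fitted without libraries 1 and 2.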
